A study of Solanum lycopersicum with 30 samples.

Results

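Roots of the tomato (Solanum lycopersicum) mutant rmc were compared between soil patches that had received a high and a low amount of ammonium. The comparison rests on 10 of the 30 Affymetrix tomato arrays of the study, the 5 labelled rmc high nitrogen and the 5 labelled rmc low nitrogen, chosen by those titles and described over all probe sets other than array and reporter controls. The study crossed 2 genotypes, wild type (WT) and rmc, with 3 patch treatments, water, low nitrogen (low N) and high nitrogen (high N), in 6 groups of 5 biological replicates with 1 array each. Plants were transplanted to field soil at an age of 8 weeks and grown there for 5 weeks, the treatment was injected into a discrete patch, and the roots of that patch were taken 24 h later. The labels give the ammonium as 6.5 ppm for rmc low N and 65 ppm for rmc high N, but as 10 and 100 µM for the WT groups, so that the doses of the genotypes cannot be set side by side. The water arrays of rmc carry the same mutation and serve as the level without added ammonium. The name rmc stands for reduced mycorrhizal colonization. What the ppm values refer to is not given in the labels, and excised and washed patch roots were measured whole.

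Roots take up ammonium through transporters of the AMT1 family, and glutamine synthetase joins it to glutamate to give glutamine. Cytosolic and plastid forms of glutamine synthetase exist, and glutamate dehydrogenase can release or bind ammonium in mitochondria. The carbon skeletons for this assimilation come from sugars through glycolysis and the organic acids of the mitochondrial cycle. In a wild-type root an arbuscular mycorrhizal fungus can also deliver nitrogen and phosphate, a route that is reduced in rmc.

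All values are log2 MAS5 signals, a summary of the probes of 1 probe set, so a difference of 1 is a 2-fold change, and levels are not compared between probe sets. Arrays of the same group correlated with 0.880 to 0.977 in rmc high N and 0.902 to 0.978 in rmc low N across probe sets. All 7 root marker probe sets passed the filter on low signals. Of 9 shoot photosynthesis probe sets, 7 lay among the low signals left out of testing, with means from 1.89 to 4.96, and 2 passed it, PSBR, a photosystem II subunit gene, and LOC543978. No gene that marks mycorrhizal cells, and no probe set for the mutated gene, is named in the annotation used here, so neither the colonization nor the genotype was checked. A change of RNA per cell and a change in the share of a cell type cannot be told apart in whole roots.

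The glutamine synthetase gene gts1 had the largest called rise of any named gene between low and high N. By its brighter probe set the low N arrays, replicates 1 to 5, read 10.02, 10.22, 10.65, 10.67 and 8.85, and the high N arrays 11.17, 11.86, 11.23, 11.73 and 12.16. All 5 high N arrays lay above all 5 low N arrays, and low N replicate 5 lay far under the other low N arrays, at the level of the water mean of 8.82. The means were 10.08 ± 0.74 (SD, n = 5) and 11.63 ± 0.42, a 2.93-fold rise (log2 difference 1.55, SE 0.32, limma adjusted p = 0.031). The dimmer probe set of gts1 rose 2.68-fold (log2 difference 1.42, SE 0.32, limma adjusted p = 0.0321), from 6.54 ± 0.71 to 7.96 ± 0.48, again without overlap between the groups. Without low N replicate 5 the difference of the brighter probe set was 1.24 and did not pass, which is the lowest value with any 1 of the 10 arrays left out. It also did not pass without high N replicates 2, 4 or 5 or low N replicate 1. The fits in which it did not pass called 0 or 1 probe sets in all, as the adjustment covers every probe set tested. With any 1 of the 10 arrays left out, the unadjusted limma p of this probe set lay between 2.47e-05 and 0.000246.

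The ammonium transporter gene AMT1-2 stood higher at high N but did not pass. Its low N arrays read 9.82, 10.10, 9.86, 10.32 and 8.64, and its high N arrays 10.45, 10.85, 10.04, 10.18 and 10.72. Here too low N replicate 5 was the lowest, and the groups overlapped. The log2 difference was 0.70 (SE 0.25, limma adjusted p = 0.115). For gdh1, which encodes glutamate dehydrogenase, low N arrays read 11.39, 11.43, 11.45, 11.42 and 11.68 and high N arrays 11.76, 11.83, 11.63, 11.83 and 11.94. Only high N replicate 3 lay below low N replicate 5, and the difference was 0.32 (SE 0.12, limma adjusted p = 0.115). GS2, a second glutamine synthetase gene, read 7.94, 6.36, 7.16, 7.88 and 6.27 at low N and 7.72, 9.58, 7.73, 7.34 and 8.80 at high N. Its spread within groups was wide, and the difference of 1.11 (SE 0.49, limma adjusted p = 0.173) had a 95% interval from 0.11 to 2.11.

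In the list of nitrogen uptake and assimilation genes all 5 probe sets of 4 genes were tested, and 2 rose, both of gts1. Over all 7528 probe sets tested, 0.598% were called higher, where called means an adjusted p under 0.05. The list median was 1.11, against -0.01 for all probe sets tested, and all 5 had an unadjusted p under 0.05 for a higher level, against 12.5% of all probe sets. The groups of both gts1 probe sets did not overlap, as in 1.21% of all probe sets for higher values. These genes were known to respond to ammonium in these data before the list was set, so the count is a description.

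The nitrogen genes were also set against the water arrays of rmc. The brighter gts1 probe set stood 1.26 above water at low N and 2.81 above at high N, and AMT1-2 0.65 and 1.35. For gdh1 the values were 0.41 and 0.74, whereas GS2 stood at -0.64 and 0.47. None of these passed at low N against water (limma adjusted p = 0.996 for each). The unadjusted limma p there was 0.000467 for gts1, 0.0146 for AMT1-2, 0.00132 for gdh1 and 0.195 for GS2. At high N against water gts1, AMT1-2 and gdh1 passed and GS2 did not (limma adjusted p = 7.33e-06, 0.00343, 0.00123 and 0.591). Both comparisons use the same water arrays as well as the arrays compared above, so they are no independent check of the step from low to high N. In rmc 1 probe set, or 0.0133% of those tested, was called at low N against water, and 4.34% at high N against water; at an unadjusted p under 0.05 the shares were 4.54% and 22.8%.

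**Figure D1:**
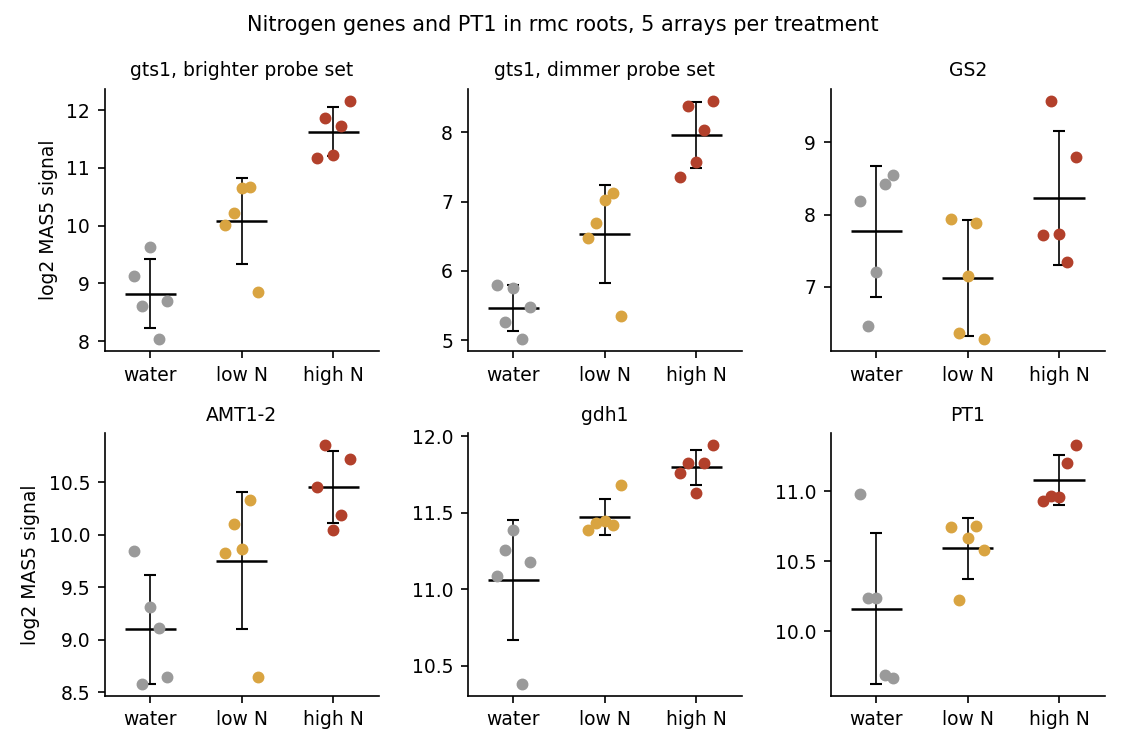
Each point is the log2 MAS5 signal of 1 rmc array, for nitrogen genes and the phosphate transporter gene PT1, with 5 arrays per treatment (water, low N, high N), and bars give the mean and SD; the vertical axes differ between panels and do not start at 0. Both gts1 probe sets are higher on every high N array than on any low N array, replicate 5 is the lowest of the low N arrays for gts1 and AMT1-2, and GS2 overlaps between all treatments.

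The largest rise of any called probe set belonged to one without a gene name. It read 9.36, 9.24, 10.80, 10.49 and 10.80 at low N and 11.36, 11.89, 11.69, 11.94 and 12.29 at high N. The low N arrays fell into a lower pair, replicates 1 and 2, and 3 higher ones, and all of them lay below the high N arrays. The rise was 3.24-fold (log2 difference 1.69, SE 0.30, limma adjusted p = 0.031), and on the way from water (8.16 ± 0.33) the low N mean stood 1.98 higher, the only call at low N against water (limma adjusted p = 0.0032). The next largest rise without a gene name followed another course. That probe set read 8.22, 7.99, 8.27, 8.32 and 8.02 at low N, close to its water mean of 8.26 ± 0.18, and 8.61, 9.66, 8.77, 9.03 and 9.64 at high N (1.97-fold, log2 difference 0.98, SE 0.18, limma adjusted p = 0.031). Its low N difference from water was -0.09, against 0.89 at high N.

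Of named genes besides gts1, LOC543639 and GLX1 rose and LOC543812 fell. GLX1 encodes glyoxalase I, which removes the reactive sugar by-product methylglyoxal. Its low N arrays read 10.18, 10.30, 10.29, 10.28 and 9.99, and its high N arrays 10.38, 10.60, 10.56, 10.39 and 10.69. The groups did not overlap, but the rise was small (1.25-fold, log2 difference 0.32, SE 0.08, limma adjusted p = 0.0451), and the low N mean lay near that of water (difference -0.04). LOC543639 went from 10.10 ± 0.13 to 10.43 ± 0.20 (log2 difference 0.33, SE 0.08, limma adjusted p = 0.0413), and high N replicate 1, at 10.15, lay within the low N range.

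LOC543812 read 11.32, 11.05, 11.39, 10.97 and 11.13 at low N and 10.81, 10.44, 10.82, 10.50 and 10.09 at high N. Every high N array lay below every low N array, a 1.56-fold fall (log2 difference -0.64, SE 0.14, limma adjusted p = 0.0336). The largest falls of probe sets without a gene name were -0.79 (limma adjusted p = 0.0399) and -0.76 (limma adjusted p = 0.0451). The first read between 8.48 and 8.74 at low N and between 7.40 and 8.46 at high N, where replicate 1 was the highest. Scaling the arrays to their poly-A spikes, described below, left these 3 differences negative, but none of them passed, and each passed in 3 of the 10 fits that left out 1 array.

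**Figure D2:**
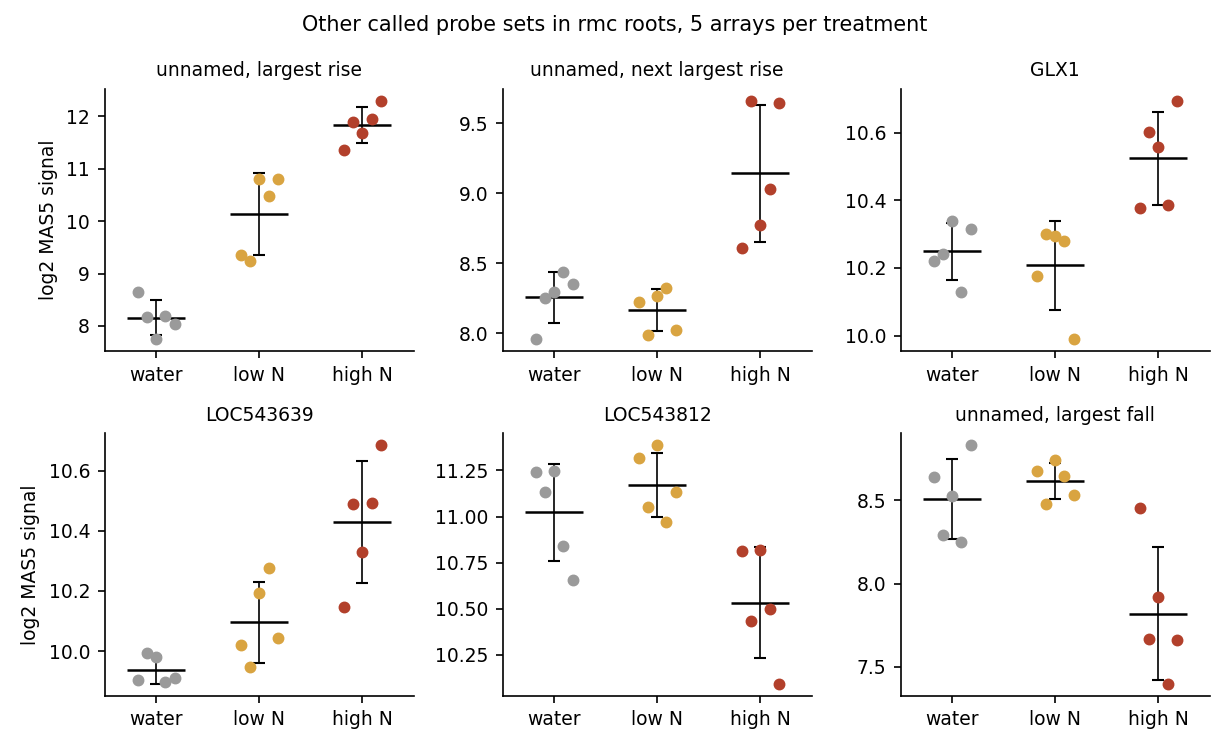
Log2 MAS5 signals of 6 other called probe sets on the rmc arrays, 5 per treatment (water, low N, high N), with mean and SD; the vertical axes differ between panels and do not start at 0. The unnamed probe set with the largest rise is higher at low N than in water and higher again at high N, whereas for the next unnamed one and GLX1 the low N arrays lie around the water arrays and below the high N arrays, and for LOC543812 the high N arrays lie below all low N arrays but overlap the water arrays.

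Over the whole array 53 probe sets, or 0.704% of 7528, changed between low and high N in rmc, 45 higher and 8 lower, and 5 of them belong to 4 named genes. The rises ran from 0.23 to 1.69 with a median of 0.44, and only 3 reached a 2-fold change, both probe sets of gts1 and the unnamed one above. The falls had a median of -0.62. The called probe sets fall into 47 probe clusters by their identifiers, 6 of which hold several of them. All 53 moved in their direction on 5 of 5 high N arrays, relative to the low N mean. In 29 the groups did not overlap, against 1.71% of all probe sets tested. The 53 were chosen by the difference between these same arrays, so both counts describe them and add no support. At an unadjusted p under 0.05 there were 1775 probe sets, or 23.6%, of which 938 were higher and 837 lower.

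These counts were unsteady. The adjusted p of every called probe set lay between 0.031 and 0.0451, close to the threshold. Without high N replicate 1 there were 1051 calls, without high N replicate 3 there were 211 and without low N replicate 4 there were 421. Without high N replicates 2, 4 or 5, or low N replicate 1, limma called 0, with 1001, 1588, 982 and 1571 probe sets at an unadjusted p under 0.05. Without low N replicates 2, 3 and 5 there were 27, 19 and 1 calls. A fit of the 10 arrays alone called 0, with 1092 at an unadjusted p under 0.05. Array weights gave 505 higher and 431 lower.

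The arrays of high N differed in how far they stood from low N. Over the 45 rises the median distance from the low N mean was 0.18, 0.54, 0.33, 0.42 and 0.63 for high N replicates 1 to 5, and over the 8 falls it was -0.20, -0.83, -0.37, -0.62 and -0.78. Replicate 1 was the nearest to low N in 45 of the 53 probe sets, and replicate 5 the farthest in 36. The poly-A spikes, control transcripts added to the RNA, read 8.22, 7.04, 8.51, 8.18 and 7.77 on the same arrays and 8.54, 8.52, 8.83, 8.51 and 8.17 at low N. The lowest spike signals therefore stood on high N replicates 2 and 5, the arrays with the largest distances. Their group means were 7.95 ± 0.57 and 8.51 ± 0.23 (SD, n = 5; difference -0.57, two-sided exact permutation p = 0.0794, adjusted over 10 array measures p = 0.159). Scaling to them adds 0.57 to every difference and gave 3126 calls higher and 0 lower, against a median of 0.55 for all probe sets. The shift is the same for every probe set, so the order of the differences and the place of a list among all probe sets stay as they are.

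None of the other array measures passed. The difference of the 3' and 5' GAPDH probe sets was 0.072 ± 0.132 at low N and -0.144 ± 0.147 at high N (SD, n = 5, two-sided exact permutation p = 0.0476, adjusted p = 0.159), and that of actin 0.197 ± 0.029 and 0.185 ± 0.056 (exact permutation p = 0.698, adjusted p = 0.698). That of ubiquitin was 0.071 ± 0.196 and -0.084 ± 0.046 (exact permutation p = 0.143, adjusted p = 0.204). The ribosomal RNA probe sets read 8.65 ± 0.21 (SD, n = 5) at low N and stood 0.35 higher at high N (exact permutation p = 0.0556, adjusted p = 0.159). Hybridization spikes were 9.80 ± 0.07 at low N and 9.85 ± 0.10 at high N (exact permutation p = 0.373, adjusted p = 0.414). Of 12 dividing cell markers, 11 were tested and 10 stood above 0 without a call; their mean level over the list ranged from 6.84 to 8.25 at low N and from 7.51 to 9.29 at high N, highest on high N replicate 2 (exact permutation p = 0.325, adjusted p = 0.407). The 2 shoot photosynthesis probe sets tested averaged 7.75 to 9.07 and 7.38 to 8.44 (exact permutation p = 0.103, adjusted p = 0.172), and the lowest mean of the untested ones was 1.89, for CAB5. The mean of the root markers was 9.41 ± 0.25 (SD, n = 5) at low N and 9.70 ± 0.18 at high N (exact permutation p = 0.0714, adjusted p = 0.159). These markers include AMT1-2 and PT1, with differences of 0.70 and 0.49, so their mean does not measure the share of root apart from those genes. CYP1, taken as a senescence marker, read 10.91 ± 0.19 and 10.56 ± 0.25 (exact permutation p = 0.0556, adjusted p = 0.159). The smallest p that 5 against 5 arrays allow is 0.00794. The part of these measures in the changes above was not tested.

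**Figure D3:**
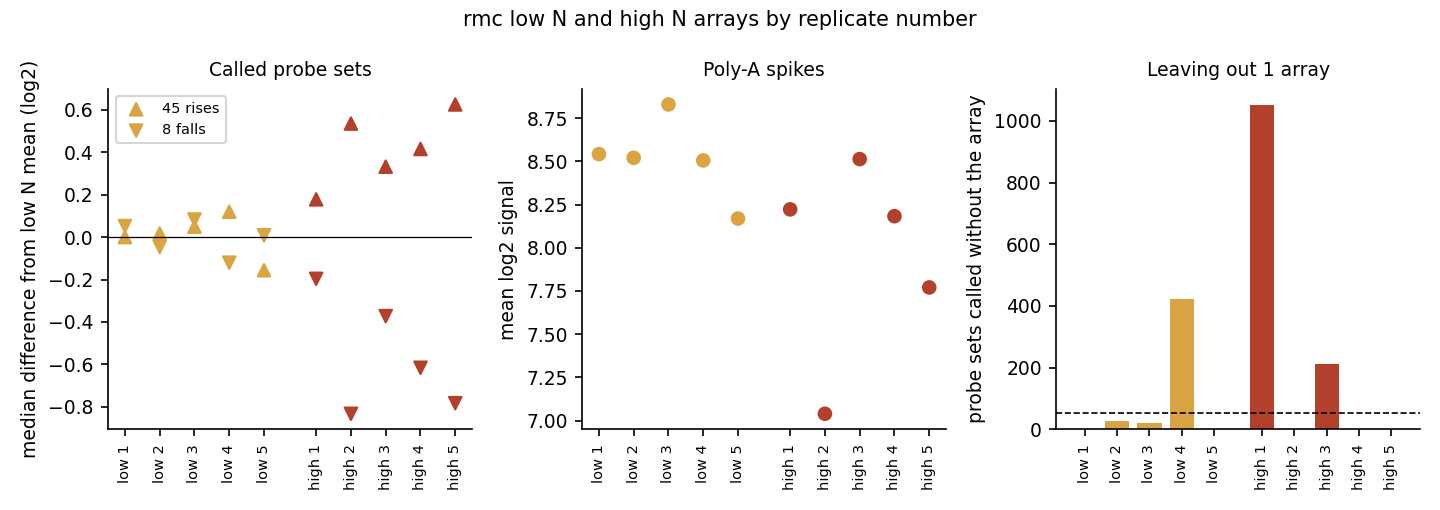
For each rmc low N and high N array by replicate number, the left panel gives the median log2 distance of the called rises and falls from the low N mean, the middle panel the mean log2 signal of the poly-A spikes (axis not from 0), and the right panel the number of probe sets called when that array is left out, with a dashed line at 53. High N replicates 2 and 5 stand farthest from low N and have the lowest spike signals, and the number of calls ranges from 0 to 1051.

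The WT arrays gave a second view of the step; they entered the choice of the called probe sets through the filter on mean signal and the shared estimate of the spread. There limma called 0 probe sets between high and low N, and 672 had an unadjusted p under 0.05 (8.93% of those tested). All 45 probe sets that rose in rmc were also higher at high N in WT, with a median of 0.23 against 0.44 in rmc, and 31 had an unadjusted p under 0.05. Of the 8 that fell, 7 were lower in WT, with a median of -0.30. Over all probe sets tested, 48.4% were higher in WT with a median of -0.01, and the differences of the genotypes correlated with r = 0.632 across 7528 probe sets, which are not independent of each other. In WT the brighter gts1 probe set differed by 0.91, the unnamed probe set with the largest rise by 0.86, AMT1-2 by 0.37, gdh1 by 0.26 and GLX1 by 0.17. The GAPDH difference also went from 0.051 ± 0.131 to -0.118 ± 0.067 in WT (SD, n = 5), and the poly-A spikes read 8.31 ± 0.33 and 8.13 ± 0.19; their part in the shared direction was not tested.

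Whether the step differed between genotypes was tested directly. No probe set had a different step in rmc and WT by limma (0 of 7528 at an adjusted p under 0.05, 107 at an unadjusted p under 0.05), and the labelled doses differ as well. In all 53 called probe sets the step was larger in rmc, but they were chosen in rmc. For gts1 the rmc step exceeded that of WT by 0.64 with a 95% interval from -0.27 to 1.56, for the unnamed probe set with the largest rise by 0.84 (-0.03 to 1.70) and for AMT1-2 by 0.33 (-0.39 to 1.06), so a clearly larger step in rmc and an equal one both lie within the intervals. Among named genes with the smallest p for a higher step in rmc, the ethylene-forming ACC oxidase genes ACO6 and ACO4 stood at 0.32 and 0.34 in rmc and -0.68 and -0.27 in WT, beside PLDb2, LOC778319 and LOC778238 with excesses of 0.25, 0.31 and 0.61. The values for a lower step were LOC543812 (-0.43), ATG6 (-0.40), LOC543802 (-0.54), abz1 (-1.84) and LOC543993 (-0.74). None of them passed (limma adjusted p = 0.999 for each).

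**Figure D4:**
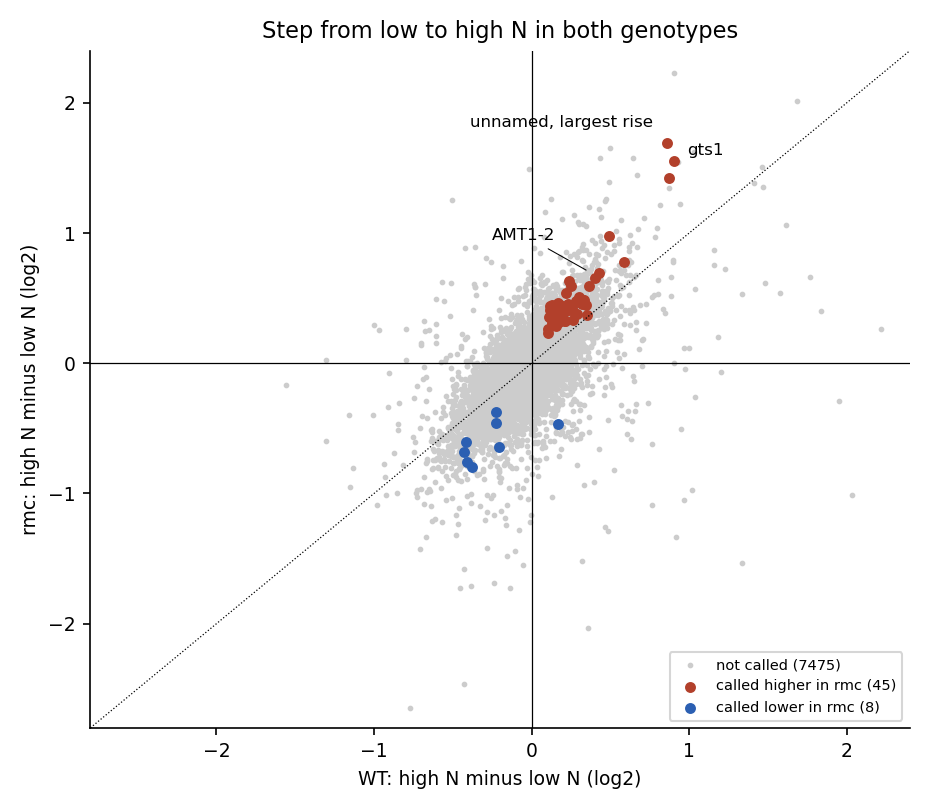
Log2 differences between high N and low N in WT (horizontal) and rmc (vertical) for each of the 7528 probe sets tested, with the 45 called higher and 8 called lower in rmc in colour and equal differences on the dotted line. All 45 red points lie right of 0 and 7 of the 8 blue points left of 0, and all lie farther from 0 in rmc than in WT.

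In the lists of glycolysis, organic acids and respiration and of sugar and starch limma called 0 probe sets. The mitochondrial malate dehydrogenase gene mMDH1 read 11.28, 11.08, 11.40, 11.36 and 10.95 at low N and 11.21, 11.73, 11.60, 11.59 and 11.89 at high N. Only high N replicate 1 lay within the low N range, and the difference was 0.39 (SE 0.10, limma adjusted p = 0.0523), beside 0.34 for its other probe set. SCOA, a succinyl-CoA ligase gene, differed by 0.43 (limma adjusted p = 0.0644), the enolase gene PGH1 by 0.27 (0.073), the hexokinase gene hxk1 by 0.54 (0.0699) and the sucrose synthase gene LOC543961 by 0.84 (0.0694). The low N means of these genes stood between -0.08 and 0.06 from water. The list of glycolysis, organic acid and respiration genes had a median of 0.12, with 10 of 13 tested probe sets above 0, 6 at an unadjusted p under 0.05 and 0 called by limma, where 48.1% of all probe sets stood above 0 and 12.5% did so at an unadjusted p under 0.05. Differences in this list ran from -1.26 to 0.51, so the largest of them was a fall. Beyond the genes that the naming rule selects, examples from the lists were chosen after their values were seen. UCP, a mitochondrial uncoupling protein gene, differed by 0.41 and the alcohol dehydrogenase gene ADH2 by 0.51 (limma adjusted p = 0.115 and 0.135).

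Genes of sugars and starch went both ways. Of 24 probe sets tested, 12 stood above and 12 below 0, with 3 and 6 at an unadjusted p under 0.05 and 0 called by limma. At that unadjusted threshold 12.5% of all probe sets were higher and 11.1% lower. Below 0 were all 3 probe sets of BMY3, a beta-amylase gene (-0.45, -0.86 and -0.86), whereas those of the sucrose transporter gene SUT4 disagreed (-0.59 and 0.13). The remaining named genes above 0 with the smallest p were PLDb2, a phospholipase D gene (0.35, limma adjusted p = 0.0646), and GLUII (0.27, limma adjusted p = 0.0824). PLDb2 read 7.16 to 7.47 at low N and 7.48 to 7.90 at high N, without overlap.

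Among the named genes below 0, eIF-5A1, a translation factor gene, read 11.81, 11.86, 12.12, 11.50 and 12.02 at low N and 11.65, 10.73, 11.62, 11.22 and 10.73 at high N. High N replicates 2 and 5 were the lowest, and the difference was -0.67 (SE 0.18, limma adjusted p = 0.0644). The same arrays were the lowest for PSBR, with 10.37, 8.60, 10.43, 9.80 and 8.92 at high N against 10.35, 10.71, 10.81, 10.02 and 11.03 at low N (difference -0.96, SE 0.29, limma adjusted p = 0.08). The autophagy gene ATG6 differed by -0.52, the phytoene synthase gene PSY2 by -0.67, DREB3, a gene of the ERF family of transcription factors, by -0.59 and the ethylene signalling gene EIL2 by -0.25. LOC543934, LOC543810 and LOC543580 differed by -0.41, -0.29 and -0.29. None passed (limma adjusted p = 0.0686 for ATG6 to 0.0967 for DREB3), and on the poly-A spike scale ATG6, EIL2 and these 3 LOC genes turned positive.

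Of 31 transcription factor probe sets tested, 27 lay below 0 with a median of -0.27, against -0.01 for all probe sets, of which 48.1% lay above 0. By limma 0 were called, and 8 had an unadjusted p under 0.05 below 0 and 1 above, where 11.1% and 12.5% of all probe sets did. Examples are WRKY2 (-0.32), AREB1, a factor of the abscisic acid response (-0.48), and GBF12 (-0.55), with TCP3 as the one above (0.82). Ethylene synthesis and signalling genes had 24 of 33 probe sets below 0 and a median of -0.20, with 5 below 0 at an unadjusted p under 0.05 and 0 called. They include EIL2, EIL1 (-0.24) and PTI6 (-0.39). Light perception and signalling genes had 8 of 9 below 0 with a median of -0.30, the cryptochrome gene CRY1A at -0.79 and -0.30 by its 2 probe sets and COP1 at -0.46 among them. Limma called 0 of the light genes, and 2 had an unadjusted p under 0.05.

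Carotenoid and isoprenoid genes had 12 of 18 probe sets below 0 and a median of -0.09, and auxin and gibberellin genes 9 of 12 with a median of -0.09. By limma 0 were called in both, and 4 and 2 had an unadjusted p under 0.05, all below 0. Among all probe sets tested, 48.1% stood above 0, and 11.1% were lower at an unadjusted p under 0.05. PSY2 read 8.37 to 9.12 at low N and 7.37 to 8.30 at high N without overlap, and Psy1, another phytoene synthase gene, differed by -0.81 and -0.25 by its 2 tested probe sets (limma adjusted p = 0.146 and 0.518). IAA17, an auxin response gene, differed by -0.997 and the auxin response factor gene LOC543517 by -0.71 (limma adjusted p = 0.19 and 0.114).

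Antioxidant enzymes had 18 of 21 probe sets above 0, a median of 0.17, 6 above 0 at an unadjusted p under 0.05 and 0 called by limma. Of all probe sets tested, 48.1% stood above 0, 12.5% did so at an unadjusted p under 0.05 and 0.598% were called higher. At that unadjusted threshold 11.1% were lower. MDHAR, which regenerates ascorbate, was 0.46 higher with no overlap between the groups (limma adjusted p = 0.103), and the superoxide dismutase gene SODCP.2 was 0.44 higher. Ribosomal proteins and translation factors had 8 of 11 above 0 with a median of 0.05, and 4 above and 1 below, eIF-5A1, at an unadjusted p under 0.05. Of 8 probe sets for regulatory TFT proteins, 7 stood above 0 (median 0.14), of 5 for heat shock proteins 3 (median 0.11), of 32 for cell wall enzymes 19 (median 0.17) and of 11 for water channels, pumps and ion transporters 8 (median 0.26). By limma 0 of these were called. At an unadjusted p under 0.05 there were 2 TFT and 1 heat shock probe sets above 0, 1 cell wall probe set on either side, and 1 of the water channel, pump and transporter list below 0.

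**Figure D5:**
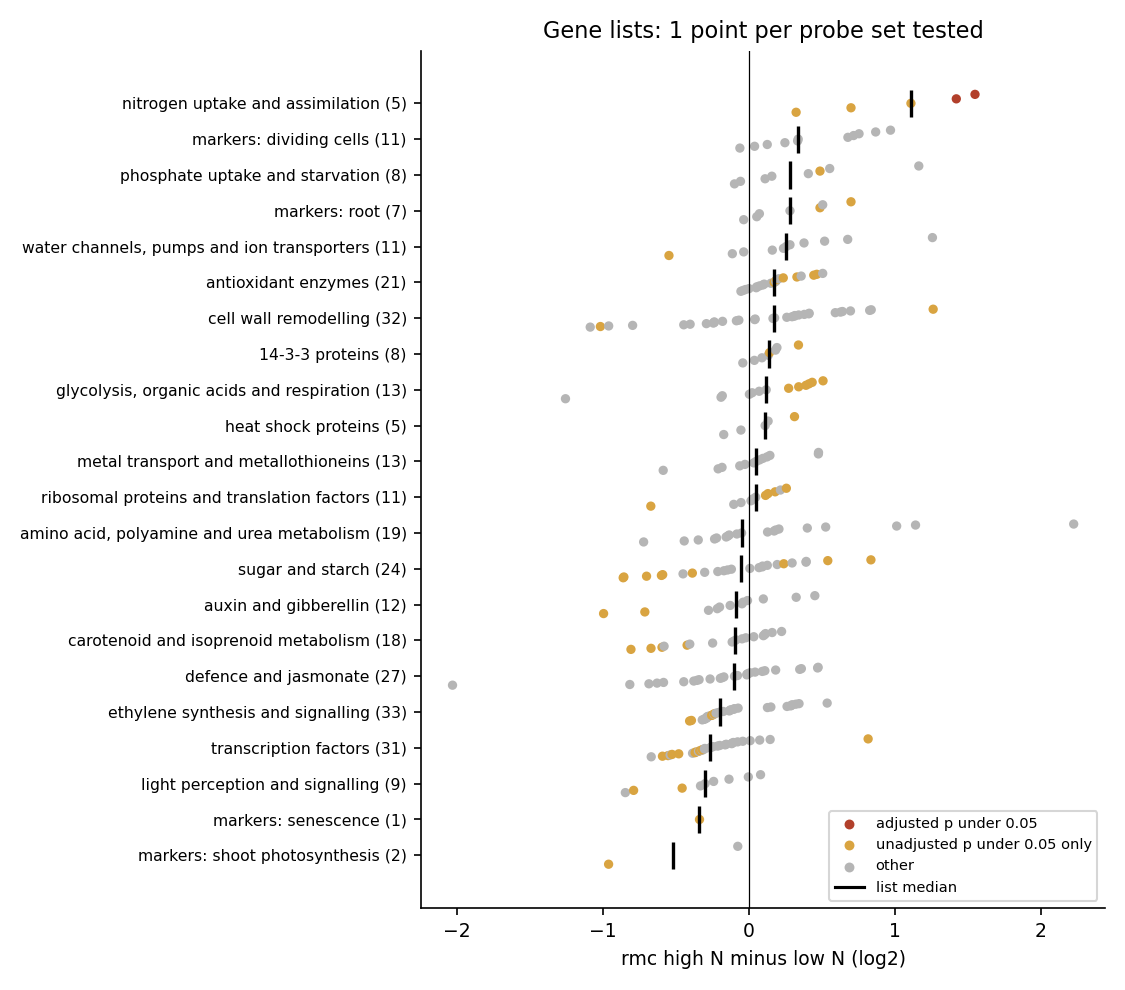
Log2 differences between rmc high N and low N for every tested probe set of each gene list (number tested in brackets), ordered by the list median (black bar), with probe sets past the adjusted threshold in red and those past only the unadjusted one in yellow. The only red points are the 2 gts1 probe sets; transcription factor, light and ethylene genes lie mostly left of 0, and antioxidant and nitrogen genes mostly right of it.

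Phosphate genes gave no call between low and high N. The phosphate transporter gene PT1 read 10.74, 10.22, 10.66, 10.75 and 10.58 at low N and 10.93, 10.97, 10.96, 11.20 and 11.33 at high N. The groups did not overlap, but the difference of 0.49 (SE 0.17, limma adjusted p = 0.113) did not pass. Against water PT1 stood 0.43 higher at low N, which did not pass (limma adjusted p = 0.996). At high N it stood 0.92 above water, which passed (limma adjusted p = 0.00346). PT2, another phosphate transporter gene, differed by 0.55, and the acid phosphatase gene APS1 by 0.41. Of the phosphate starvation ribonuclease genes RNALE differed by 1.16 (SE 0.66) and rnalx by 0.11 (SE 0.48), with wide spreads in both groups. TPSI1 (-0.06), PPCK1 (-0.10) and PPCK2 (0.16), the last 2 encoding kinases of PEP carboxylase, stood near 0. In all 6 of 8 lay above 0 with a median of 0.28, 1 at an unadjusted p under 0.05. Of all probe sets tested, 48.1% lay above 0 and 12.5% did so at that threshold, so the 1 of 8 does not set this list apart.

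Amino acid, polyamine and urea genes did not shift together, with 9 of 19 probe sets above 0 (median -0.05), metal transport and metallothionein genes had 8 of 13 above 0 (median 0.05), and defence and jasmonate genes 9 of 27 (median -0.10). In these lists limma called 0, and 0 had an unadjusted p under 0.05. Over all probe sets tested, 48.1% stood above 0, and 23.6% had an unadjusted p under 0.05 in either direction. The amino acid, polyamine and urea list ran from -0.72 to 2.23, the latter the highest difference of all probe sets tested. The defence and jasmonate list ran from -2.03 to 0.47. CYP1, used here as a senescence marker, differed by -0.35 (limma adjusted p = 0.111). Of 7 root markers 6 stood above 0 with 0 called; AMT1-2 and PT1 are among them.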

How the data were processed

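The deposited table holds log2 MAS5 signals, for which the submitters' processing notes name MAS5 and Affymetrix Expression Console. Software versions and scan dates were not given, and batches were therefore not examined. Per the labels' protocols, 200 ng of RNA per sample was amplified with a commercial kit. The linear 2% trimmed mean is 500.04 to 500.05 on every array, which hides any change shared by the whole transcriptome. Of 10209 probe sets, 108 array and 63 reporter controls and the lowest 25% by mean (under 5.612) were left out, which left 7528; named readings went down to 4.90, above the highest reading of the 23 negative controls (3.36). A platform annotation, which can be old, names 1 gene for 909 probe sets, several for 0 and none for 9129; 885 matched RefSeq (SLM_r2.1), and 690 of those tested are named.

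All 30 arrays entered 1 fit of 6 group means in limma 3.58.1 (lmFit, contrasts, eBayes with trend; R 4.3.3), with two-sided p adjusted by Benjamini-Hochberg over 7528 and a threshold of 0.05. Array measures were compared by exact permutation, adjusted over 10. The fit was tested on simulated data. Figures used Python 3.11.15, pandas 2.3.3 and matplotlib 3.10.9.

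The comparison, the 18 gene lists and 4 marker lists, and the rules were chosen with earlier results of these data known, and the lists were rewritten to the annotation's symbols after the files had been opened. Named are called probe sets with 1 gene name (up to 15 per direction), or, as fewer than 10 passed in either, the 10 genes with the smallest p per direction. The 2 largest called changes per direction without a name, called list members and all nitrogen and phosphate genes are also given. For the difference between genotypes in the step from low to high N, 5 genes per direction are given. Each gene is given by its brightest probe set. Alternatives were other normalizations, filters and variance models, fewer arrays and a replicate block. Same-numbered high N and low N arrays did not deviate together (correlations -0.24 to 0.14). The labels call the samples biological replicates; nothing more is given on their plants.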

Additional observations from a re-analysis of the deposited data

Results flagged for a closer look

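Of 116 groups of 5 values examined, 6 had 1 array whose gap to the nearest other exceeded 0.71 of the group's range, where chance gives about 1 in 20. In rmc low N, gdh1 read 11.68 on replicate 5 (others 11.39 to 11.45), LOC543934 7.46 on replicate 4 (others 7.92 to 8.03), APS1 6.93 on replicate 2 (others 7.54 to 7.70) and PPCK2 7.78 on replicate 3 (others 8.39 to 8.59). The GAPDH difference was -0.159 on low N replicate 4 (others 0.093 to 0.160). In rmc high N, PT2 read 9.98 on replicate 2 (others 10.73 to 11.03). The number of probe sets whose step from low to high N differed between genotypes was 0, as given above. Levels of the genotypes were not compared.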

How the results depend on the processing

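Against 53 calls (45 higher, 8 lower), median centring gave 104 (95 higher), no filter 34 (4 lower), leaving out the lowest 50% 82 (72 higher) and quantile normalization 5 lower. Poly-A spike scaling gave 3126, 3126 higher and 0 lower, array weights 936, 505 and 431, and the arrays compared alone 0 in each direction, with 1092 at an unadjusted p under 0.05. The replicate block gave 213 calls, 156 higher and 57 lower, although same-numbered rmc high N and low N arrays did not deviate together. The block spans all 6 groups, and whether replicate numbers pair the other groups was not examined. Leaving out 1 array gave 0 to 1051 calls, 0 to 555 higher and 0 to 496 lower; each of the 10 arrays moved the count by over 1.5 times. The cause was not tested. The difference between genotypes in the step from low to high N had 0 calls under every alternative run.

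Poly-A spike scaling adds 0.57 to every difference, so those between -0.57 and 0 turn positive by construction, which says nothing on their stability: ATG6 (0.045 and 0.0074 by its 2 probe sets), LOC543934 (0.16), LOC543810 (0.28 and 0.35), LOC543580 (0.28), EIL2 (0.32), LOC543802 (0.17), LOC543993 (0.13), PPCK1 (0.47) and TPSI1 (0.51). With array weights PPCK1 was 0.024. Leaving out 1 array gave ACO6 -0.063 to 0.62 and -0.076 to 0.56 by its dimmer probe sets, PPCK2 -0.021 to 0.38, PPCK1 -0.19 to 0.037, rnalx -0.31 to 0.47 and the actin difference -0.031 to 0.00027. The gts1 difference stayed between 1.24 and 1.70, past the threshold in 5 of 10 such fits, and passed in 14 of all 20 alternatives; its adjusted p ranged from 0.00527 to 0.343. The number of arrays limits the precision.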
